A study of Mus musculus with 4 samples.

Results

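The MHC class II presentation genes were read out in MC38 tumors by single-cell RNA sequencing. The set was defined by name as H2-Aa, H2-Ab1, H2-Eb1, Cd74, Ciita, H2-DMa, H2-DMb1, H2-DMb2 and H2-Oa, and all 9 symbols were found among the 32285 gene rows of the count matrices. MC38 is a colon adenocarcinoma line of C57BL/6 mice, and the tumors were grown under the skin of C57BL/6 mice from cells with wild-type RAC1 (WT) or from a clone of MC38 edited by CRISPR knock-in so that both copies of the gene for the GTPase RAC1 carry the A159V change. Mice received anti-PD1 or control IgG, which gave 4 groups: WT tumors under IgG or anti-PD1, and A159V tumors under IgG or anti-PD1. CD45+ and CD45- cells of each tumor were separated on beads and mixed again before loading, so shares of immune and non-immune cells reflect that mixing. Each group was 1 library and the A159V cells were 1 clone, so no difference between groups could be tested. The number of mice behind a library was not given in the sources used here. All intervals below are 95% intervals and cover counting error only.

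MHC class II molecules are pairs of an alpha and a beta chain that display peptides from the endosome to CD4+ T cells. They are made mainly by dendritic cells, B cells and activated macrophages, and interferon gamma can induce them in other cells, including tumor cells, through the transactivator Ciita. The invariant chain Cd74 guides the pair to the endosome and blocks its groove, H2-DM exchanges the remnant of Cd74 for peptide, and H2-DO, of which H2-Oa is the alpha chain, restrains H2-DM. H2-Aa and H2-Ab1 encode the I-A pair, while H2-Eb1 encodes the I-E beta chain, whose alpha chain gene is inactive in C57BL/6 mice.

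The genes of the chains lie together. In GRCm38, 7 of the 9 genes span 224.3 kb of chromosome 17, in the order H2-Oa, H2-DMa, H2-DMb2, H2-DMb1, H2-Ab1, H2-Aa and H2-Eb1, while Ciita is on chromosome 16 (10480059 to 10528418, plus strand) and Cd74 lies on another chromosome. H2-Ab1 covers 34257689 to 34269419 on the plus strand, H2-Aa covers 34282744 to 34287823 on the minus strand and H2-Eb1 covers 34305867 to 34316674 on the plus strand. Class II promoters are known for an X box, bound by the RFX complex, and a Y box, bound by NF-Y, on which Ciita is recruited. RefSeq promoter windows of GRCm38.p6 (250 bases before to 50 bases after a start) were used here for 6 of the 9 genes, with 7 windows in all. They were searched on both strands for the end of the X box written ACNGATG, a Y box written GATTGG and a STAT site written TTCNNNGAA. The 250 bases before the start of the genes below are printed because they show the shared boxes of the chain genes and where they differ, with motif matches in capitals. The windows are chr17:34305617-34305866 (plus strand), chr17:34287824-34288073 (minus strand), chr17:34152941-34153190 (plus strand) and chr17:34144999-34145248 (plus strand).
H2-Eb1: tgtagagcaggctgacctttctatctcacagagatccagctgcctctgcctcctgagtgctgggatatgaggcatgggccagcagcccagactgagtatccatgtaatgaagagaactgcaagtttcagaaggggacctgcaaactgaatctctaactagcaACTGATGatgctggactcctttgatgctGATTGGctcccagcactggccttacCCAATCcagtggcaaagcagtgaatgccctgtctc
H2-Aa: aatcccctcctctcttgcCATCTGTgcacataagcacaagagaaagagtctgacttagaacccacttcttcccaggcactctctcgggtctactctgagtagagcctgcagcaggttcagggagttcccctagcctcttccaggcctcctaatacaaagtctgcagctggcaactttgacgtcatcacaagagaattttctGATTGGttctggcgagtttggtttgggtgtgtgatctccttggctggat
H2-DMb1: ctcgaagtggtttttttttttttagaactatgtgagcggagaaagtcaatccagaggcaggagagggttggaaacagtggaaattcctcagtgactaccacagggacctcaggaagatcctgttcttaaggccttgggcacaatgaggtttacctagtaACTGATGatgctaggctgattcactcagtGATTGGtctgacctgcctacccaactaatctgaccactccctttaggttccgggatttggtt
H2-DMb2: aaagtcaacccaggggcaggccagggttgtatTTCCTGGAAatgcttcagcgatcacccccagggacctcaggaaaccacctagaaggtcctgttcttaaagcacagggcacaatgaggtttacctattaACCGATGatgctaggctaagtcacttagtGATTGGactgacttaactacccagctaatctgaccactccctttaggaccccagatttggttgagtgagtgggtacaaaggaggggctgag
The X box letters began 88 bases before the start in H2-Eb1, 91 in H2-DMb1, 120 in H2-DMb2 and 137 in H2-Oa. In each of these a Y box followed on the same strand, at 60 bases before the start in H2-Eb1, 62 in H2-DMb1, 91 in H2-DMb2 and 44 in H2-Oa. H2-Eb1 had a further Y box on the opposite strand at 35 bases. H2-Aa held a Y box at 49 bases, and its only match to the X box letters lay far from it, at 232 bases and on the opposite strand. X boxes with other letters were not searched for, so this does not show that H2-Aa lacks an X box beside its Y box. H2-DMa, with 2 windows, held no X box letters in either and a Y box in only 1 of them, at 199 bases. Both windows lie inside the gene, which covers 34119541 to 34139101. No other part of it was searched, so boxes at another start would have been missed. H2-DMb2 alone among the 6 genes held a STAT match, at 218 bases. The X box letters occurred in 9.85% of 32851 promoter windows of the same length, the Y box in 16.1%, the STAT site in 8.30%, and X and Y boxes together in 1.52%. A match is a description of these letters and not evidence of binding.

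The libraries held 7430 to 9311 barcodes and 54402632 to 125227747 unique molecular identifiers (UMIs, counts of distinct captured RNA molecules). After removal of barcodes with 500 genes or fewer and of 374 to 631 predicted doublets per library, 29184 cells remained, with a median of 3332 to 4171 UMIs. Pairs of libraries shared 13 to 22 barcodes. Cells were clustered without the class II genes and named from marker lists, and levels are UMIs of a gene per 1000000 UMIs (CPM), summed over the cells of a class in 1 library. The WT anti-PD1 library stood apart: it held 45 tumor-like cells where the others held 2007 to 2801, and 1592 stromal-like cells where the others held 145 to 192. Of the 8 tumor markers, 3 reached 10 CPM in tumor-like cells of every library. B-like cells (26 to 58 per library) carried all 7 B markers and all 5 plasma cell markers at 10 CPM or more. A dendritic-like cluster of 11 to 46 cells per library also carried all 6 T cell markers, so it is named the mixed Cd209a cluster below. The deposited matrices were not corrected for RNA from lysed cells.

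Dendritic-like cells carried the highest class II level of the tumor. Where 4 values follow each other, they are those of WT IgG and WT anti-PD1, then A159V IgG and A159V anti-PD1. The summed level of the 9 genes was 25598, 28194, 19952 and 23544 CPM in dendritic-like cells, 5004, 5953, 6095 and 4973 CPM in B-like cells, 4899, 7874, 1613 and 3470.5 CPM in macrophage-like cells and 2477, 18061, 1282 and 4064 CPM in monocyte-like cells. The order by the median over libraries was dendritic-like, B-like, macrophage-like, monocyte-like, neutrophil-like, T-like, NK-like, tumor-like and stromal-like. A cluster of 531, 41, 425 and 478 cells stayed unnamed, although the classical monocyte list matched it best. Its sum was 3248 to 7091 CPM with a median of 4093 CPM, above the monocyte-like median of 3270 CPM. These cells entered neither this order nor any monocyte-like value below. The ranges over the 4 libraries did not overlap between dendritic-like and B-like, between monocyte-like and neutrophil-like, or between T-like and NK-like cells. The other neighbors overlapped, so B-like, macrophage-like and monocyte-like cells could not be ranked, and neither could NK-like, tumor-like and stromal-like cells.

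**Figure D1:**
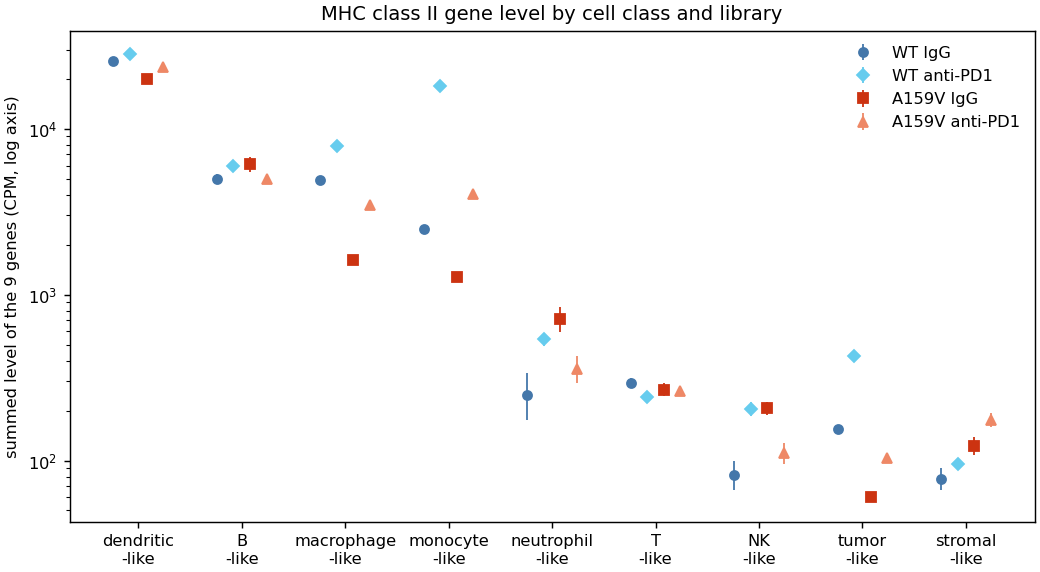
Summed level of the 9 class II genes (CPM, log axis) in each cell class, with 1 point per library colored by group. Dendritic-like cells lie between 19952 and 28194 CPM, above all other classes, and macrophage-like and monocyte-like cells spread most between libraries.

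T-like cells served as the class that should lack the chains and Cd74, since mouse T cells do not transcribe the class II chains. They held H2-Oa at 3.78 to 6.13 CPM, above the 0.377 to 0.781 CPM of macrophage-like cells. They also held H2-DMa at 19.2 to 28.8 CPM beside 1.89 to 4.18 CPM of H2-DMb1, so they set no floor for every gene. Their summed level was 294, 243, 268 and 262 CPM, and 8.39% (95% interval by the Clopper-Pearson method 6.60 to 10.5), 8.72% (7.16 to 10.5), 7.13% (4.89 to 9.96) and 7.37% (5.72 to 9.32) of them held a Cd74 UMI after each cell was thinned to 1500 UMIs. The share without thinning was 13.9%, 17.2%, 8.55% and 11.7%, at median depths of 2779, 3077, 1642.5 and 2170.0 UMIs. After thinning, Cd74 was found in 94.4%, 96.9%, 83.2% and 91.95% of dendritic-like cells, in 52.9%, 74.4%, 27.8% and 43.3% of macrophage-like cells and in 45.6%, 78.7%, 28.1% and 45.3% of monocyte-like cells. These shares stood above the T-like share in every library, and thinning left out 35 to 62 dendritic-like, 123 to 353 macrophage-like and 153 to 325 T-like cells per library that were shallower than 1500 UMIs. In macrophage-like cells the unthinned shares were 64.4%, 82.8%, 31.1% and 52.1% at median depths of 3511, 3601, 2127 and 2992.5 UMIs.

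The 9 genes followed each other closely across cell types. Over 33 profiles of a class in a library, each gene's log2 level correlated with the mean of the other 8 at r = 0.93 to 0.97 for 7 of the genes, at 0.87 for H2-DMb2 and at 0.72 for H2-Oa. These profiles share libraries and differ in depth, so the values are descriptions. H2-DMb2 and H2-Oa were also the genes for which B-like cells passed the dendritic-like level in some libraries. H2-Oa was 45.4, 26.9, 77.4 and 16.1 CPM in B-like cells and 41.2, 56.1, 34.3 and 39.3 CPM in dendritic-like cells, against 0.781, 0.377, 0.630 and 0.674 CPM in macrophage-like cells. The other genes most like the sum, among 8209 compared, were Pkib (r = 0.947), which encodes an inhibitor of protein kinase A, the lectin Clec10a (0.932), the Cdc42 exchange factor Fgd2 (0.927), and the enzymes of tryptophan breakdown Kynu (0.926) and Kmo (0.923). All 5 were highest in dendritic-like cells of WT anti-PD1, and Clec10a and Kmo had been used as markers to name cells.

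**Figure D2:**
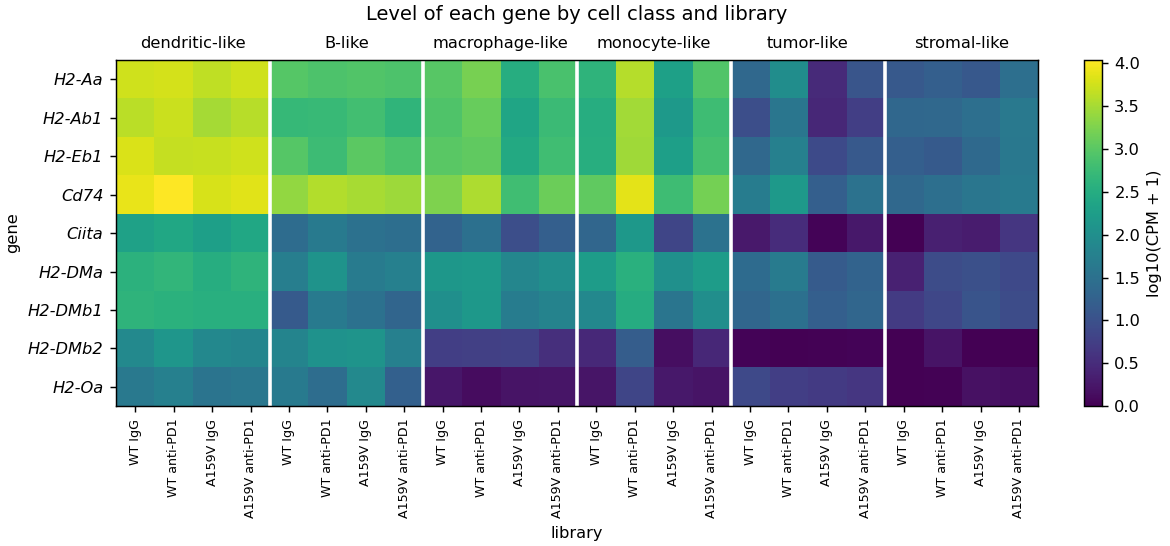
Heat map of the level of each of the 9 genes (rows, color as log10 of CPM plus 1), with 1 column per library within each cell class. The classes are dendritic-like, B-like, macrophage-like, monocyte-like, tumor-like and stromal-like. The classical chains and Cd74 are highest in dendritic-like cells of every library, whereas H2-DMb2 and H2-Oa stand at similar levels in dendritic-like and B-like cells and at 5.04 CPM or less in macrophage-like cells.

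In dendritic-like cells the class II genes differed little between groups, and none of the genes at 50 CPM or more passed 2-fold in any comparison. H2-Aa was 5673, 6052, 4519 and 5539.7 CPM, H2-Ab1 was 4217, 5199, 3123 and 4054 CPM, and Cd74 was 8039.7, 10912, 6268 and 7191 CPM. A159V IgG was the lowest of the 4 libraries for each of these. Ciita, which drives transcription of the set, was 206, 254, 187 and 254 CPM, and H2-DMa was 399, 449.8, 332 and 417 CPM. Under IgG the summed level was lower in A159V than in WT (log2 ratio of CPM plus 1, -0.36, interval -0.38 to -0.34). With anti-PD1 the sum was higher in WT (0.14, 0.12 to 0.16) and in A159V (0.24, 0.22 to 0.26). Comparisons against the same IgG library share it and are not independent. For A159V IgG over WT IgG, 0 of 8 genes at the minimum were 2-fold lower, where 0.433% of all 3692 genes were, and their median log2 ratio was -0.29 against 0.02 for all genes. For WT anti-PD1 over WT IgG, 0 of 9 passed 2-fold, where 5.95% of genes were higher and 6.38% lower, and their median was 0.30 against 0.17 for all genes. For A159V anti-PD1 over A159V IgG 0 of 8 passed, where 0.776% were higher, with medians of 0.25 and 0.02. The higher sum in WT anti-PD1 turned to -0.013 when libraries were scaled by the median of gene ratios in place of total UMIs.

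The dendritic-like class was a mixture, and its largest cluster moved less than the whole. The Cd209a cluster, marked by the lectin Cd209a of monocyte-derived and type 2 dendritic cells, stood at 30578, 31522, 28664 and 29004 CPM, with log2 ratios of -0.093 for A159V IgG over WT IgG, 0.044 for WT anti-PD1 over WT IgG and 0.017 for A159V anti-PD1 over A159V IgG. Type 1 conventional cells (19 to 56 cells per library) stood at 28799, 31169, 29576 and 27723 CPM. Mature dendritic cells stood lower, at 16997, 18486, 11184 and 11424 CPM, with a ratio of -0.60 (-0.68 to -0.53) for A159V IgG over WT IgG. Plasmacytoid cells, of which 12, 4, 37 and 26 were found, stood at 3050, 3581 and 2068 CPM in the 3 libraries with 10 cells or more. The Cd209a cluster made up 72.8%, 56.2%, 52.1% and 64.8% of the class, and the low plasmacytoid and mixed Cd209a clusters together with mature cells made up a larger share in A159V IgG (9.1%, 11.1% and 23.1%) than in WT IgG (3.3%, 3.5% and 14.7%). C1qa, C1qb and C1qc, made by macrophages, stood in dendritic-like cells at 8.96%, 0.859%, 4.51% and 6.92% of their macrophage-like level, and subtracting the class II level that this share of macrophage RNA would carry left the ratios at the same sign.

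**Figure D3:**
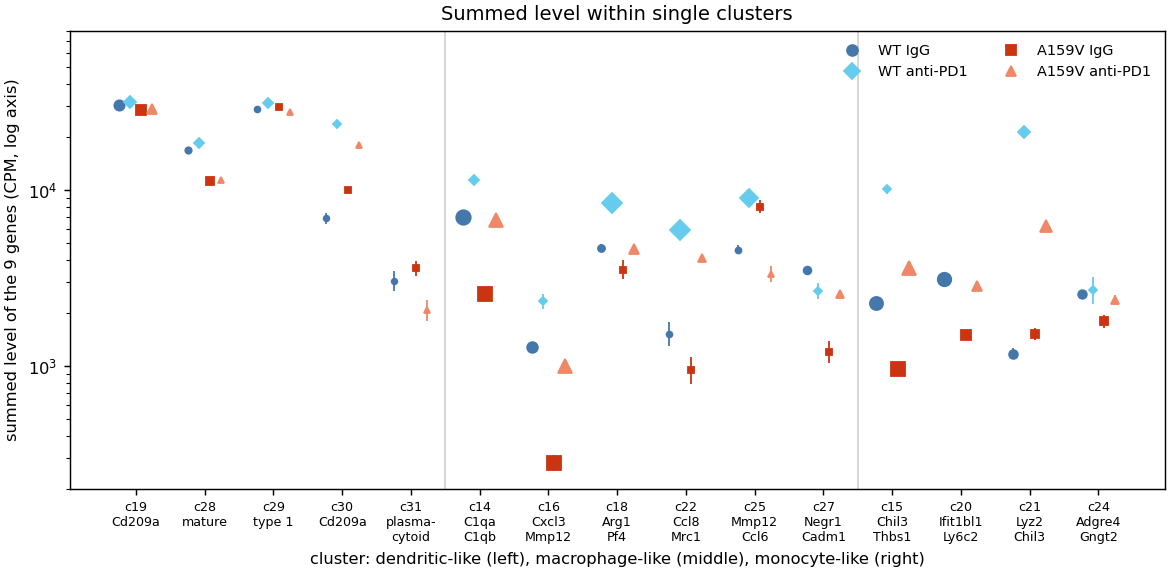
Summed level of the 9 genes (CPM, log axis) in each dendritic-like, macrophage-like and monocyte-like cluster, with 1 symbol per library colored by group and sized by cell number. The Cd209a and type 1 dendritic clusters stay between 27723 and 31522 CPM in all libraries, while 1 monocyte-like cluster reaches 21246 CPM in WT anti-PD1 from 1174 CPM in WT IgG.

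Mature dendritic cells differed from the Cd209a cluster in the H2-DM genes. H2-DMa was 494, 512, 494 and 500.4 CPM in the Cd209a cluster and 123, 190.5, 43.0 and 108 CPM in mature cells. H2-DMb1 was 542, 469, 549 and 468 CPM in the Cd209a cluster and 56.9, 54.8, 43.0 and 22.5 CPM in mature cells. H2-DMb2, the second gene for the beta chain, did not share this difference, with 90.4, 169, 87.0 and 76.5 CPM in the Cd209a cluster and 61.7, 124, 81.1 and 71.9 CPM in mature cells. The number of H2-DMb2 UMIs per H2-DMb1 UMI was therefore 1.08 (0.49 to 2.37), 2.26 (1.38 to 3.69), 1.89 (0.84 to 4.24) and 3.20 (1.17 to 8.73) in mature cells, against 0.17, 0.36, 0.16 and 0.16 in the Cd209a cluster. B-like cells also held more H2-DMb2 than H2-DMb1 UMIs, with 2.62 (1.16 to 5.93) in WT anti-PD1 and 2.80 (1.01 to 7.77) in A159V anti-PD1, and in the IgG libraries H2-DMb2 stood at 64.9 and 124 CPM beside 13.0 and 30.9 CPM of H2-DMb1. Macrophage-like cells held 0.05, 0.03, 0.10 and 0.04. These are ratios of 3′ UMIs, not corrected for length, and serve to compare cell types. The transcripts are 73.9% identical over their longest coding forms and 61.8% over the last 500 bases, and reads from their shared stretches may have been assigned to either gene, so the split of their counts is uncertain.

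The I-E beta chain gene H2-Eb1 was out of step with its neighbors in 1 library in most, though not all, cell classes. In dendritic-like cells it was 6516, 4758, 5055 and 5627 CPM, so WT anti-PD1 was the lowest library for H2-Eb1 although it was the highest for H2-Aa, H2-Ab1 and Cd74. The number of H2-Eb1 UMIs per H2-Ab1 UMI was 1.54 (1.499 to 1.59), 0.915 (0.891 to 0.940), 1.62 (1.55 to 1.69) and 1.39 (1.35 to 1.43). The same low value in WT anti-PD1 was found in the Cd209a cluster (1.48, 0.897, 1.56 and 1.31), in mature dendritic cells (2.85, 1.39, 2.61 and 2.53) and in type 1 cells (1.40, 0.832, 1.29 and 1.68). It was also found in B-like cells (1.85, 1.11, 1.60 and 1.81), tumor-like cells (2.65, 1.51, 3.99 and 2.64), macrophage-like cells (1.22, 0.925, 1.22 and 1.12) and in the few class II UMIs of T-like cells (1.46, 0.879, 1.81 and 1.20). In monocyte-like cells the ratio was 1.01, 0.958, 1.21 and 1.17, and the intervals of WT IgG (0.942 to 1.09) and WT anti-PD1 (0.905 to 1.01) overlapped, as they did in stromal-like cells (0.729, 0.585, 0.772 and 0.960). Other cells did not share the order. In NK-like cells the ratio was 0.765, 0.778, 0.956 and 0.629. In neutrophil-like cells it was 2.18 (1.45 to 3.29) in WT anti-PD1, with 1.87 and 0.905 in the A159V libraries under IgG and anti-PD1. These 3 values come from 15 to 33 H2-Ab1 UMIs each. The ratio was higher still in WT IgG neutrophil-like cells, but from very few UMIs. They held 3 H2-Eb1 and 0.333 H2-Ab1 UMIs per UMI of the C1q genes, which had 3 UMIs. Among macrophage-like clusters, WT anti-PD1 was the lowest library in the C1qa cluster (0.908) and the Arg1 cluster (0.778) but not in the Cxcl3 cluster (0.978, against 0.411 in A159V IgG) or the cluster led by Negr1 and Cadm1 (1.68, against 1.39 in WT IgG). H2-Aa per H2-Ab1 UMI did not share this order, with 1.35, 1.16, 1.45 and 1.37 in dendritic-like cells and 1.18, 1.33, 1.42 and 1.31 in macrophage-like cells. With 1 library per group, anti-PD1 treatment of WT tumors and this library cannot be told apart as the source of the low ratio.

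**Figure D4:**
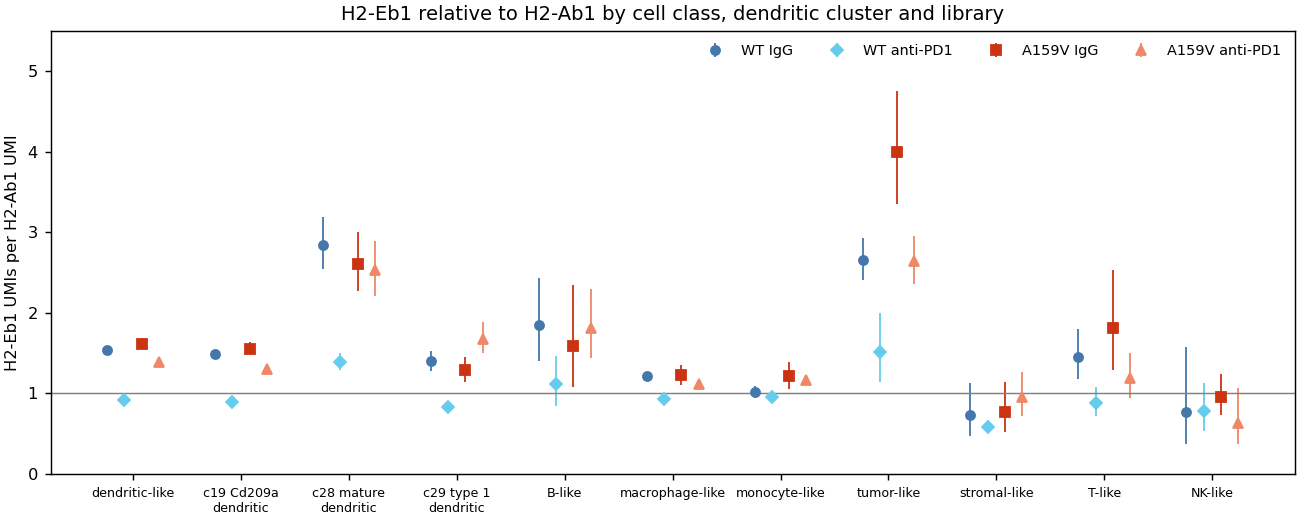
Number of H2-Eb1 UMIs per H2-Ab1 UMI by cell class and dendritic-like cluster, with 1 point per library colored by group and 95% intervals from counting error. WT anti-PD1 is the lowest library in dendritic-like (0.915), B-like (1.11), macrophage-like (0.925), T-like (0.879) and tumor-like cells (1.51), but not in NK-like cells (0.778).

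In macrophage-like cells the class II genes under IgG were lower in A159V than in WT, and anti-PD1 libraries were higher in both genotypes. H2-Aa was 991, 1645, 331 and 744 CPM. Its partner H2-Ab1 was 837, 1239, 232 and 566 CPM. H2-Eb1 was 1019, 1146, 284 and 632 CPM, and Cd74 was 1792, 3516, 632 and 1350.2 CPM. Each of these 4 genes thus had its lowest level in A159V IgG and its highest in WT anti-PD1, and the level in A159V anti-PD1 was below that of WT IgG. Ciita, at low counts, was 18.5, 30.3, 8.19 and 15.5 CPM, from 26 UMIs in A159V IgG to 241 in WT anti-PD1. H2-DMa was 134, 152, 69.9 and 96.3 CPM and H2-DMb1 was 102, 141, 49.5 and 62.4 CPM.

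Under IgG the summed level in A159V was below that in WT (log2 ratio -1.60, -1.65 to -1.56). The chains and Cd74 had ratios of -1.84 for H2-Ab1 and for H2-Eb1, -1.58 for H2-Aa and -1.502 for Cd74, while the H2-DM genes stood at -0.93 (H2-DMa) and -1.02 (H2-DMb1). The intervals of the chain genes (H2-Ab1 -1.96 to -1.73) did not reach those of H2-DMa (-1.14 to -0.71) or H2-DMb1 (-1.28 to -0.77). Of the 6 genes at 50 CPM or more in 1 of the libraries, 5 were 2-fold lower, where 0.592% of all 3716 genes were (22 genes). H2-DMb1 met that minimum in WT IgG only, and of the 5 genes that met it in both libraries 4 were 2-fold lower, where 0.271% of 3317 genes were. Ciita had a ratio of -1.09 (-1.65 to -0.52) below that minimum, and H2-DMb2 and H2-Oa were at 5.04 CPM or less in every library.

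With anti-PD1 the sum was 0.68 higher in WT (0.66 to 0.71) and 1.10 higher in A159V (1.06 to 1.15) on the log2 scale. In WT the largest ratios were those of Cd74 (0.97) and H2-Aa (0.73) and the smallest those of H2-Eb1 (0.17) and H2-DMa (0.18), and 0 of 6 genes passed 2-fold, where 5.76% of all genes were higher. In A159V, H2-Ab1 (1.28), H2-Aa (1.17), H2-Eb1 (1.15) and Cd74 (1.09) passed 2-fold, so 4 of 6 did, where 1.23% of all genes were higher, and each of the 4 was above 50 CPM in both libraries. H2-DMa (0.46) and H2-DMb1 (0.33) were below 2-fold.

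Different clusters made up the macrophage-like class in the libraries. A cluster led by C1qa, C1qb and Ms4a7 held 55.8%, 3.6%, 48.0% and 30.2% of it, a cluster led by Cxcl3 and Mmp12 held 23.2%, 2.3%, 41.3% and 41.4%, and clusters led by Arg1 and Pf4, by Ccl8 and Mrc1, and by Mmp12 and Ccl6 held 42.7%, 28.3% and 22.2% in WT anti-PD1. Within the C1qa cluster the sum was 7060.4, 11454, 2555 and 6785 CPM, with ratios of -1.47 (-1.52 to -1.41) for A159V IgG over WT IgG, 0.70 (0.64 to 0.75) for WT anti-PD1 and 1.41 (1.35 to 1.46) for A159V anti-PD1. Within the Cxcl3 cluster the sum was 1283, 2338, 280 and 997 CPM, with ratios of -2.19 (-2.36 to -2.03) and 1.83 (1.67 to 1.99) in the comparisons with enough cells. A cluster led by Negr1 and Cadm1 had ratios of -1.55 and 1.10, and the Arg1 cluster had 0.86 for WT anti-PD1 over WT IgG. The direction in every cluster with at least 50 cells in both libraries was thus that of the whole class. In the smaller Mmp12 and Ccl6 cluster, with 30 and 20 cells in the IgG libraries, A159V IgG was the higher, with 8029 CPM against 4567 CPM. Median depth per cell was lower in A159V IgG macrophage-like cells, and its part in the result was not tested beyond the cells with 5000 UMIs or more, in which the ratio was -2.14.

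**Figure D5:**
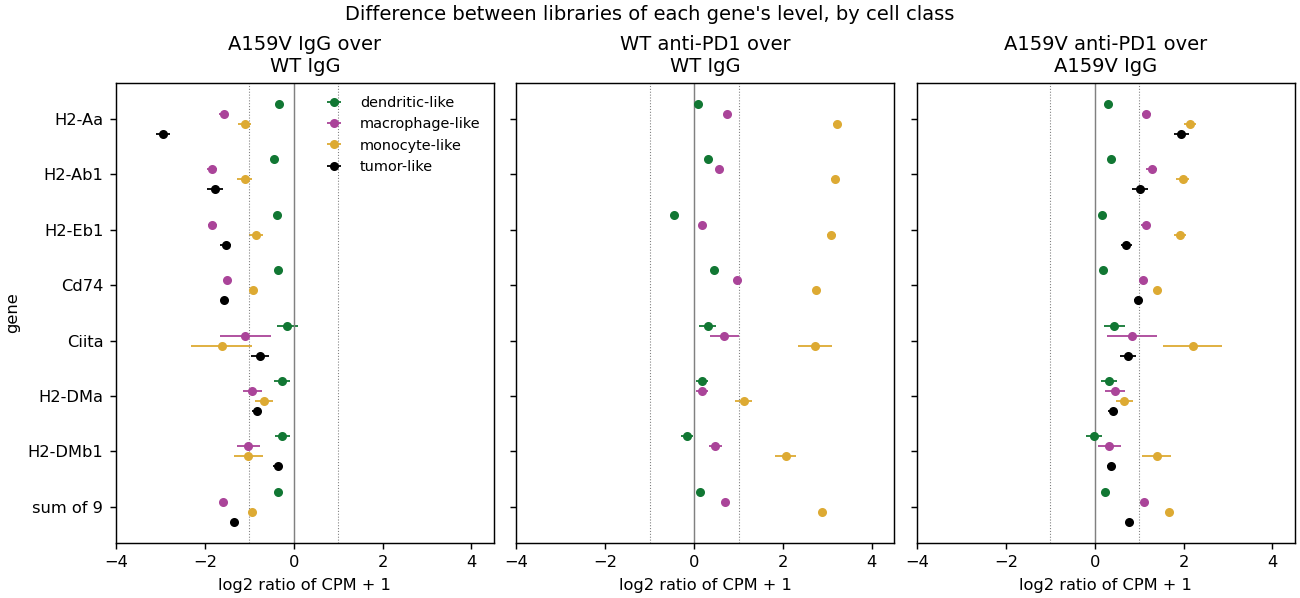
Log2 ratio of CPM plus 1 of 7 class II genes and of the sum of 9 in dendritic-like, macrophage-like, monocyte-like and tumor-like cells, for the 3 comparisons, with 95% intervals from counting error and dotted lines at 2-fold. Macrophage-like ratios lie between -1.84 and -0.93 for A159V IgG over WT IgG, and dendritic-like ratios stay inside the 2-fold lines.

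Monocyte-like cells had the same order of groups in the IgG libraries and a far higher level in WT anti-PD1. H2-Aa was 421, 3894, 195 and 861 CPM. Cd74 was 1122, 7461, 597 and 1584 CPM, and Ciita was 20.8, 143, 6.09 and 31.9 CPM. H2-DMa, at 168, 363, 106 and 168 CPM, had the narrowest range of the genes above 50 CPM. Under IgG the sum was lower in A159V than in WT (-0.95, -1.01 to -0.89), with 3 of 6 genes at the minimum 2-fold lower (H2-Aa at -1.11, H2-Ab1 at -1.11 and H2-DMb1 at -1.02), where 0.618% of all genes were, although H2-DMb1 met the minimum in WT IgG only. Within A159V it was higher under anti-PD1 (1.66, 1.61 to 1.72), with 5 of 6 genes 2-fold higher, where 0.604% of all genes were. H2-DMb1 again met the minimum in 1 library only, and 4 of the 5 genes at 50 CPM in both were 2-fold higher, where 0.407% of 2952 genes were. H2-Aa (2.14), H2-Ab1 (1.98) and H2-Eb1 (1.92) had the largest of these ratios and H2-DMa (0.67) the smallest.

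The monocyte-like cells of WT anti-PD1 differed in other genes too. The sum was higher than in WT IgG by 2.87 on the log2 scale (2.83 to 2.90), and all 6 genes at 50 CPM or more in both libraries were 2-fold higher, where 7.06% of 2817 such genes were. With the minimum in 1 library, 13.3% of all genes were 2-fold higher, and Ciita also entered, through WT anti-PD1 alone. This library held 196 monocyte-like cells, and 147 of them (75.0%) fell into 1 cluster that held 14.96%, 16.0% and 24.97% of the class in WT IgG, A159V IgG and A159V anti-PD1. In that cluster the sum was 1174, 21246, 1519 and 6242 CPM. Its WT anti-PD1 cells also held the mannose receptor Mrc1 at 2650.1 CPM against 43.7 in WT IgG, the chemokine Ccl24 at 706 CPM against 2 UMIs in WT IgG, and C1qa at 363 against 13.98 CPM. Their summed level of the 7 classical monocyte markers was 4337 CPM, against 11053, 11859 and 11299 CPM in the other libraries. The label monocyte-like thus described these 147 cells less well than those of the other libraries. Outside that cluster, the 22 WT anti-PD1 cells of the Chil3 cluster stood at 10105 CPM, against 2266, 963 and 3608 CPM in the other libraries, and the 18 cells of the nonclassical cluster at 2705 CPM, against 2564, 1791 and 2379 CPM. For A159V IgG over WT IgG the Chil3 cluster had a ratio of -1.23 and the cluster led by Ifit1bl1 and Ly6c2 had -1.05, nonclassical monocytes had -0.52, and the cluster that held most of the WT anti-PD1 cells had the opposite sign (0.37, 0.21 to 0.53).

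B-like cells were few, and their class II levels were described without a comparison of groups. Cd74 was 2415, 3675, 3218 and 2772 CPM, H2-Aa was 948, 822, 882 and 801 CPM, and Ciita was 26.0, 43.0, 30.9 and 28.2 CPM from 2 to 8 UMIs per library. Levels of H2-Aa lay within 801 to 948 CPM, a narrower spread than in macrophage-like cells. The same cells carried plasma cell transcripts, a cell type in which Ciita is known to be shut off, so the class is a mixture of B and plasma cells in unknown shares.

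Tumor-like cells carried class II RNA at a lower CPM than T-like cells in the 3 libraries that held more than 50 of them. They were far deeper than T-like cells, so this order does not set their level against that of RNA from lysed cells. The sum was 155, 60.0 and 103 CPM in WT IgG, A159V IgG and A159V anti-PD1, and 426 CPM in the 45 cells of WT anti-PD1, which were not compared. H2-Aa was 22.3, 2.03 and 10.7 CPM in the 3 libraries, from 1419, 180 and 956 UMIs. Cd74 was 48.2, 15.7 and 31.9 CPM, and Ciita was 0.866, 0.101 and 0.850 CPM from 55, 9 and 76 UMIs. A159V IgG was the lowest of the libraries for all of these. No gene reached 50 CPM, so the members were read at a minimum of 10 CPM. For A159V IgG over WT IgG the sum had a log2 ratio of -1.35 (-1.40 to -1.30), with H2-Aa at -2.95, Cd74 at -1.56 and H2-Eb1 at -1.53, where 4.17% of 8906 genes were 2-fold lower. H2-Aa and H2-Eb1 met the minimum in WT IgG only, and of the 3 genes that met it in both libraries 1 (Cd74) was 2-fold lower, where 2.54% of 8067 genes were. For A159V anti-PD1 over A159V IgG the sum had 0.77 (0.72 to 0.82), and 0 of the 3 genes at the minimum in both libraries were 2-fold higher, where 0.0728% of 8245 genes were. H2-Aa had 1.95 but met the minimum in A159V anti-PD1 only, and with such genes kept 0.128% of 8602 genes were 2-fold higher. All 3 tumor-like clusters moved alike, with -1.27, -1.26 and -1.33 for the first comparison and 0.72, 0.89 and 0.76 for the second.

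The H2-DM genes and H2-Oa behaved differently from the chains in tumor-like cells. H2-DMa was 24.7, 13.5 and 18.2 CPM and H2-DMb1 was 20.8, 15.9 and 20.9 CPM in WT IgG, A159V IgG and A159V anti-PD1, with ratios of -0.83 and -0.36 for A159V IgG over WT IgG. H2-DMa UMIs per H2-Ab1 UMI were 2.92, 7.56 and 3.90 in these tumor-like libraries, against 0.16, 0.30 and 0.17 in macrophage-like cells and 0.69, 0.70 and 0.46 in T-like cells. H2-DMb1, at 15.9 to 20.9 CPM, stood above its T-like level of 1.89 to 4.18 CPM in the same libraries. H2-Oa was 6.74, 3.81 and 3.30 CPM from 295 to 428 UMIs, above its macrophage-like level of 0.630 to 0.781 CPM but near its T-like level. Over the 4 libraries T-like cells held H2-Oa at 3.78 to 6.13 CPM. They held H2-DMa at 19.2 to 28.8 CPM, so that gene too was near its T-like level. Whether the T-like levels of H2-Oa and H2-DMa came from RNA of lysed cells alone was not tested, so they set no floor for tumor-like cells.

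RNA of other cells in these droplets was measured beside the tumor-like values. After thinning to 1500 UMIs, 6.52% (5.47 to 7.69), 2.04% (1.55 to 2.64) and 4.93% (4.03 to 5.96) of tumor-like cells held a Cd74 UMI in WT IgG, A159V IgG and A159V anti-PD1. Each share was below the T-like share. Tumor-like cells were far deeper than T-like cells, so thinning reduces RNA of other cells more in them. The T-like share is thus no floor for them, and these shares can neither show nor exclude expression of Cd74. In the 45 cells of WT anti-PD1 the share was 5 of 42 deep enough cells (11.9%, 3.98 to 25.6). Without thinning the shares were 47.0%, 73.3%, 25.6% and 51.0%, at median depths of 29551, 49192, 30751 and 42190.5 UMIs. C1q genes stood in tumor-like cells at 0.11%, 0.31%, 0.08% and 0.14% of their macrophage-like level, and the 8 macrophage markers summed to 15, 40, 11 and 15 CPM. The class II sum was 3.16%, 5.41%, 3.72% and 2.97% of the macrophage-like level, so tumor-like cells held 27.4, 51.3, 20.3 and 21.4 class II UMIs per C1q UMI, against 0.999, 2.95, 0.457 and 1.04 in macrophage-like cells. T-like cells also exceeded macrophage-like cells, with 29.3, 9.44, 6.98 and 13.6, as did NK-like cells, with 31.7, 8.31, 18.8 and 7.79. The ratio can thus neither show nor exclude expression in tumor-like cells. In the 972, 15, 1518 and 691 tumor-like cells with no UMI of 8 immune genes the sum was 153, 302, 57.4 and 97.1 CPM. Class II UMIs were not held by a few cells in WT IgG, A159V IgG and A159V anti-PD1, where the 1% of cells with most of them held 12.7%, 8.96% and 9.69%. In WT anti-PD1, 1 of the 45 cells held 19.1%. The part of RNA from dendritic cells, which do not carry much C1q, was not tested.

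Stromal-like cells were near the tumor-like level, at 77.5, 95.6, 122 and 176 CPM. Cd74 was 22.1, 28.998, 38.0 and 45.8 CPM and H2-Ab1 was 21.6, 22.2, 29.3 and 42.4 CPM, so both stood in the same order of libraries. Of the 4 genes at 10 CPM in both libraries, 0 were 2-fold higher in A159V under IgG, 0 in WT anti-PD1 and 1 in A159V anti-PD1 (H2-Aa), where 0.576%, 2.76% and 1.17% of such genes were. With the minimum met in 1 library only, these shares of all genes were 2.43%, 4.8% and 2.08%, and H2-DMb1 (9 and 20 UMIs) entered the first comparison through A159V IgG alone. Both stromal-like clusters had opposite signs for A159V IgG over WT IgG (-1.04 and 2.09), and 48.8%, 30.8%, 37.4% and 70.4% of class II UMIs lay in 1% of the cells. Thinned Cd74 shares (0.69%, 4.52%, 4.32% and 3.72%) were below those of T-like cells. Stromal-like cells were also deeper than T-like cells, so these shares can neither show nor exclude expression in stromal-like cells.

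Genes that act above and beside the class II genes were read from 5 lists. Of the 7 factors that bind class II promoters, only Creb1 reached 50 CPM in macrophage-like cells (81.2, 84.8, 83.5 and 85.8 CPM), and Rfx5, a subunit of the RFX complex, was 5.08, 6.53, 3.15 and 5.73 CPM. Of the 6 genes of interferon gamma signaling, none was 2-fold lower in A159V IgG macrophage-like cells (0.592% of all genes), and 1 was 2-fold higher with anti-PD1 in A159V (1.23% of all genes). That gene was Irf1, a transcription factor induced by interferon gamma, at 223, 416, 148 and 333 CPM (log2 ratios of -0.59, 0.90 and 1.16). Its order of libraries was that of A159V IgG lowest and WT anti-PD1 highest, as for the chains. The receptor chain Ifngr1 was 119, 191, 125 and 108 CPM.

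In dendritic-like cells Irf1 was 212, 327, 209.9 and 318 CPM, and for WT anti-PD1 over WT IgG 0 of 6 genes of the list were 2-fold lower (6.38% of all genes) and 1, Jak2, was 2-fold higher (5.95%). In tumor-like cells Irf1 was 158, 285, 91.3 and 147 CPM and Ifngr1 was 35.8, 35.1, 21.1 and 21.1 CPM. A159V IgG held the lowest level of Irf1 here as it did for the class II sum.

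Enzymes that cut antigen and the invariant chain were read from a list of 8. Cathepsin S (Ctss), which trims Cd74 in dendritic cells and macrophages, was 2599, 4723, 2121 and 2248 CPM in macrophage-like cells, which is the order of libraries of H2-Aa, with log2 ratios of -0.29 for A159V IgG over WT IgG and 0.084 for A159V anti-PD1 over A159V IgG. In macrophage-like cells 0 of 8 processing genes were 2-fold lower in the first of these comparisons (0.592% of all genes) and 0 of 8 were 2-fold higher in the second (1.23%). In WT anti-PD1, 3 of 8 were 2-fold higher than in WT IgG (Ctsl, Ctsd and Ctsb), where 5.76% of all genes were, and Ctsl went from 1276 to 6399.9 CPM. In dendritic-like cells 1 of 8 was 2-fold lower in WT anti-PD1, where 6.38% of all genes were, and this was the asparagine endopeptidase Lgmn (495, 184, 438 and 426 CPM). Ctsd, at 60.0 and 59.3 CPM in WT IgG and WT anti-PD1, had a log2 ratio of -0.018 (-0.39 to 0.35). In A159V IgG dendritic-like cells, Ctsl was 2-fold higher than in WT IgG (137 and 324 CPM), 1 of the 8, where 1.22% of all genes were. Of the other class II chains, H2-Ob, the partner of H2-Oa, was 25.5, 79.9, 28.3 and 36.1 CPM in dendritic-like cells. Among the genes of turnover and receptors, Cd83, which keeps class II at the surface, was 439, 243, 518 and 258 CPM in macrophage-like cells and March1, which removes it, was 159.5, 130.03, 156 and 187 CPM. Cd83 was thus the higher in both IgG libraries, unlike the chains, and was 2-fold lower in A159V anti-PD1, where 0.429% of all genes were.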

How the data were processed

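Tumors were profiled with 10x 3′ single-cell RNA sequencing, 1 library per group and 4 in all. The authors deposited UMI counts per gene and cell barcode, aligned to mm10 with introns included, as Cell Ranger filtered matrices. The submitters' processing notes name Cell Ranger 5.0.1 and the file headers name version 7.2.0. Ambient RNA removal, doublet removal and cell filters that the authors describe were applied after these matrices.

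Barcodes with more than 500 genes were kept, and doublets were predicted per library by simulating 2 doublets per cell and removing 0.8% per 1000 cells. Counts scaled to 10000 per cell were reduced to 2000 variable genes without class II genes and to 20 principal components, and cells were clustered with Leiden (20 neighbors, resolution 1), with myeloid cells clustered again. Clusters were named from 20 marker lists. After the first output, naming was limited to lists with at least 3 markers found in at least 10% of a cluster's cells. UMIs were summed per class and library, given as CPM with exact Poisson intervals, and compared as log2 ratios of CPM plus 1, with an interval from counting error. Classes needed 50 cells and genes 50 CPM in 1 of the libraries, and counts with the minimum met in both libraries were added after seeing the data. No test across samples was possible. Shares were computed after thinning to 1500 UMIs, with Clopper-Pearson intervals. The genes named are the 9 members and genes of 5 pathway lists (the values of 1 list gene are not reported here), plus the 5 genes most like the sum and genes that lead a cluster, which were chosen after values were seen. The members and lists were chosen with earlier results of these data known. Alternatives covered gene and mitochondrial limits, doublets, clustering resolution, scaling, cell weighting, stray RNA, pseudocount, minimum level and thinning. The code was tested on simulated data. Promoters are from RefSeq GRCm38.p6, and the X box was searched by its last 7 letters and not in the longer form planned, which H2-Eb1, H2-DMb1 and H2-Oa match and H2-DMb2 and H2-Aa do not. Python 3.11.15, numpy 2.4.6, scipy 1.17.1, pandas 2.3.3, scikit-learn 1.9.0, igraph 0.11.9, leidenalg 0.10.2 and matplotlib 3.10.9 were used.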

Additional observations from a re-analysis of the deposited data

Results flagged for a closer look

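In dendritic-like cells, 2 genes had anti-PD1 ratios of opposite direction in WT and A159V tumors, and with 1 library per group the difference was not tested. H2-Eb1 had a log2 ratio of -0.45 (anti-PD1 over IgG) in WT and 0.15 in A159V, a difference of -0.61. H2-DMb2 had 0.71 in WT and -0.17 in A159V, a difference of 0.88, and the interval of the A159V value (-0.56 to 0.22) includes 0.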

How the results depend on the processing

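The summed level was recomputed under 9 or 10 alternatives for each of 8 ratios (class and comparison), and every ratio kept its direction under all of them, except dendritic-like WT anti-PD1 over WT IgG, which turned from 0.14 to -0.013 under median-of-ratios scaling. The cause was not tested. Monocyte-like ratios were not among the 8 that were recomputed, although cells led by Ccl24 and Mrc1 left that class under some of these settings. The tumor-like ratio for A159V anti-PD1 over A159V IgG stayed between 0.73 and 0.82. The tumor-like ratio for A159V IgG over WT IgG was -1.42 with predicted doublets kept, -1.25 with median-of-ratios scaling and -1.43 as a mean over cells. The macrophage-like ratio for A159V IgG over WT IgG was -1.56 with more than 1000 genes per cell, -1.68 at resolution 0.4, -1.65 at resolution 2, -1.47 in the C1qa cluster alone and -2.14 in cells with at least 5000 UMIs. For WT anti-PD1 over WT IgG it was 1.14 with more than 1000 genes, 0.65 with at most 10% mitochondrial UMIs, 0.94 with doublets kept, 0.89 and 0.64 at resolutions 0.4 and 2, 0.75 with median-of-ratios scaling and 0.78 in cells with at least 5000 UMIs. For A159V anti-PD1 over A159V IgG it was 1.40 with doublets kept, 1.26 at resolution 0.4, 1.41 in the C1qa cluster and 1.64 in cells with at least 5000 UMIs. The dendritic-like ratio for A159V IgG over WT IgG was -0.32 with doublets kept, -0.44 with median-of-ratios scaling, -0.30 without the mixed Cd209a cluster and -0.093 in the Cd209a cluster alone. For WT anti-PD1 over WT IgG it was 0.11 with more than 1000 genes, 0.095 with doublets kept, 0.16 after subtraction scaled to C1q, 0.073 without the mixed cluster and 0.044 in the Cd209a cluster. For A159V anti-PD1 over A159V IgG it was 0.18 with doublets kept, 0.30 with median-of-ratios scaling, 0.20 as a mean over cells, 0.17 without the mixed cluster and 0.017 in the Cd209a cluster. Values within single clusters and in the deepest cells were chosen after seeing the data. A pseudocount of 10 CPM moved 1 of the single-gene ratios beyond its interval and left 61. A minimum of 10 CPM moved 15 of the background counts by more than 1.5 times and left 13. No paired analysis was possible because each group is 1 library, and for the same reason no library could be left out. Depth limits the tumor-like and stromal-like values, where most genes lie below 50 CPM.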
